A study of Mus musculus with 3 samples.

Results

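The cytosolic ribosomal protein genes encode the protein components of the ribosome that translates nuclear messages. They were taken as the RefSeq protein-coding genes whose symbol is Rpl or Rps followed by a number, with an optional ending a, l, x or y, plus Rpsa, Rplp0, Rplp1 and Rplp2, which leaves out the Rps6k kinase genes. This gave 82 of the 21631 protein-coding genes that lie on an autosome or the X chromosome, with 51 genes of the large subunit and 31 of the small subunit. Accessibility was measured by ATAC-seq, in which Tn5 transposase inserts sequencing adapters into open chromatin. By their labels, the samples were hepatocytes from wild-type mice given AAV8-TBG-Cre, the control virus called EV, by retro-orbital injection, and the cells were harvested at day 4. Nuclei came from sorted cells, and the marker of the sort is not named in the labels. The TBG promoter that drives Cre in this virus is active in hepatocytes. The libraries labelled with the Sox4 virus were not analysed here, so the 3 libraries form 1 group by their labels and no test between groups was possible. The library labelled EV replicate 2 carries a tall signal inside Sox4, given below, that goes against its label, so which virus it received is in doubt. The labels give neither age nor sex and do not state separate animals, so the spread between libraries may be technical.

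Ribosomal proteins are made in nearly every cell in near-equal amounts, enter the nucleolus, and are built there with ribosomal RNA into the large and small subunits. Their messages typically begin with a C and a run of pyrimidines, the 5′ terminal oligopyrimidine tract, through which mTOR signalling adjusts their translation. Many of their introns carry small nucleolar RNAs (snoRNAs), which guide the chemical modification of ribosomal RNA. Hepatocytes secrete large amounts of plasma protein and depend on a large pool of ribosomes.

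The peak lists came from 96066404, 116147036 and 117450440 tags in replicates 1, 2 and 3, and held 108905, 119143 and 110375 peaks on the chromosomes 1 to 19, X and Y. A peak within 1000 bp of either gene end, called an end peak here, was found in every library at all 8 hepatocyte marker genes, whereas 0 of 6 Kupffer cell, 0 of 4 lymphocyte, 0 of 4 neutrophil, 1 of 5 endothelial, 2 of 5 stellate and 3 of 6 cholangiocyte markers had one. Heights are given as tags piled up at the summit per 1000000 tags of the library (ppm), which does not scale with gene length. Summed end-peak heights in replicates 1, 2 and 3 were 54.9, 46.8 and 57.6 ppm for hepatocyte markers, 5.42, 10.6 and 6.10 ppm for stellate markers and 6.31, 8.44 and 5.14 ppm for cholangiocyte markers, of which Cftr and Krt19 had no end peak. The sums of the other marker lists were below 1 ppm in every library, and the part of other cells in the results below was not tested. Inside Sox4, the library labelled EV replicate 2 held a pileup of 21.9 ppm, against 1.33 and 1.14 ppm in replicates 1 and 3, a value that goes against its control label. The main counts and the median height are therefore also given without that library.

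Nearly all ribosomal protein genes had accessible chromatin at a gene end. An end peak was found in every library at 78 of 82 ribosomal protein genes (95.1%), against 13847 of 21549 other protein-coding genes (64.3%). Over all genes the share was 64.4%. By library the number of ribosomal protein genes was 80, 78 and 80. In replicates 1 and 3 together, leaving out the library labelled EV replicate 2, it was 80 of 82, against 65% of all genes. The 4 exceptions were Rpl10l and Rpl39l, which lacked an end peak in every library, and Rps2 and Rpl17, which had one in replicates 1 and 3. The large subunit contributed 48 of 51 genes and the small subunit 30 of 31. Since there is 1 group and genes are not replicates, these counts are descriptions of the 3 libraries.

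The accessible sites of ribosomal protein genes were also tall. The height of a gene was that of the highest summit of any peak touching its end windows. Over the ribosomal protein genes with such a peak, the median height was 7.37, 7.73 and 7.36 ppm in replicates 1, 2 and 3 (7.49 ± 0.209, SD, n = 3 libraries), against 5.69, 5.81 and 5.70 ppm over the other genes (5.73 ± 0.0673). Over the 78 ribosomal protein genes with an end peak in every library, the median of the gene means was 7.62 ppm, against 5.96 ppm over 13847 other genes, and the ribosomal protein median over replicates 1 and 3 alone was 7.46 ppm. In each library the ribosomal protein median was the higher, by more than the spread between libraries. Of these 78 genes, 62 lay above the median of all such genes, against 50% by definition over all genes. The upper 25% of all such genes held 36 of the 78, and the upper 10% held 17. The median ribosomal protein site stood at the percentile 95.6 ± 0.427 of its own peak list, against 90.3 ± 1.21 for the other genes (SD, n = 3 libraries).

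**Figure D1:**
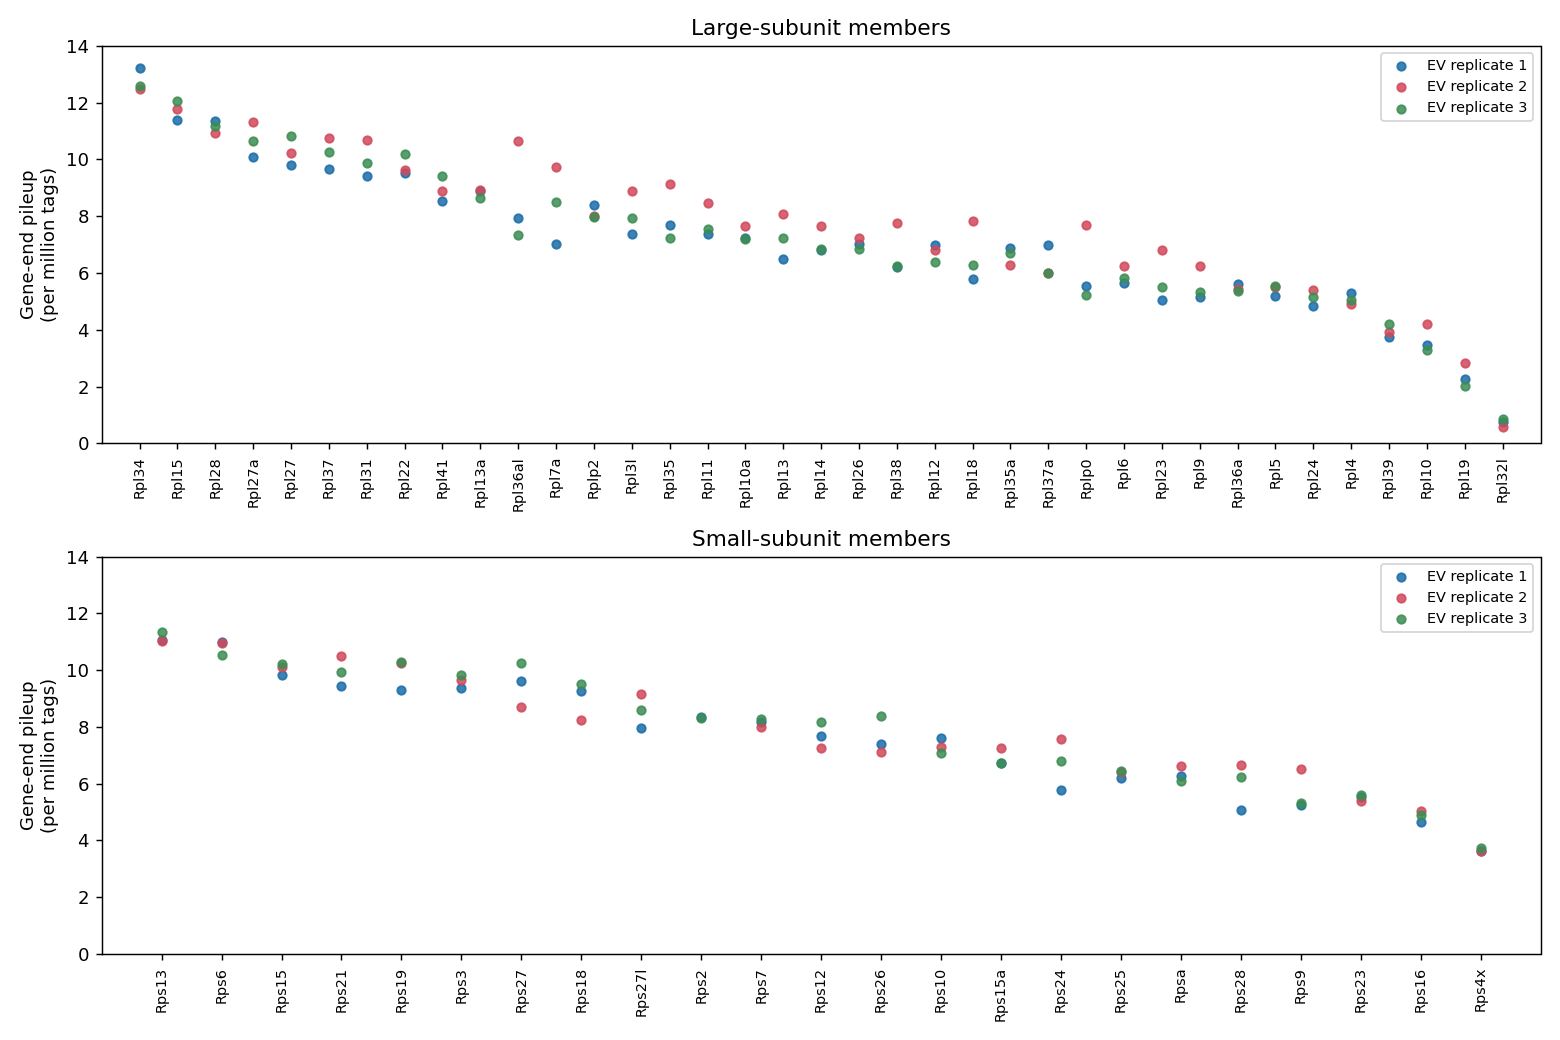
End-peak height (ppm) of large-subunit genes (upper panel) and small-subunit genes (lower panel) with a matched promoter entry, 1 point per library labelled EV, ordered by the mean of the available libraries. Rpl34 is highest in every library and Rpl32l lowest, and Rpl10l and Rpl39l, with no peak, are not plotted.

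The authors' fold enrichment, which sets a summit against the background of its surroundings, gave a smaller separation. Its median was 12.1, 13.0 and 12.5 over the ribosomal protein genes in replicates 1, 2 and 3, against 10.6, 11.2 and 10.9 over the other genes. Ribosomal protein peaks had a median length of 1262 ± 22.6 bp, against 1189 ± 17.1 bp (SD, n = 3 libraries). They held a median of 3 summits, against 2 in the other genes, in each library.

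Promoter sequences are printed for 4 of the 5 tallest members, for low members on the X chromosome, for members without a peak, and for 2 members with a sequence feature described below. RefSeq promoter entries on GRCm38.p6, the assembly behind mm10, were matched for 62 of 82 ribosomal protein genes. Each sequence, taken from RefSeq at the outermost start among a gene's entries, runs from 120 bases before that start to the first 20 bases from it onward, 5′ to 3′ on the coding strand. Capitals mark any match to CCGGAAGT, to GGGCGG, to ATGGCGGC, to TATAAA or to CTCGCGAG on either strand, and the longest run of pyrimidines within 20 bases of the start where it has 8 or more.
Rpl34, chr3:130730379-130730518, minus strand: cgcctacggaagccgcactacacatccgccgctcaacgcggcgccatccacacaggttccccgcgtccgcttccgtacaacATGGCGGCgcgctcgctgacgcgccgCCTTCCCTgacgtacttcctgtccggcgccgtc
Rps13, chr7:116334171-116334310, minus strand: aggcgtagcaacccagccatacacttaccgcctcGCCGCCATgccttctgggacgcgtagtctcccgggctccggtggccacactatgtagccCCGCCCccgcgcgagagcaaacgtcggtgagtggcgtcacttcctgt
Rps6, chr4:86857348-86857487, minus strand: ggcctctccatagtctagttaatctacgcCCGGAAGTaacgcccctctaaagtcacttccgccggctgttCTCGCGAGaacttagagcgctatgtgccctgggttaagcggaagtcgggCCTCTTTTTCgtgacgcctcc
Rps19, chr7:24884472-24884611, plus strand: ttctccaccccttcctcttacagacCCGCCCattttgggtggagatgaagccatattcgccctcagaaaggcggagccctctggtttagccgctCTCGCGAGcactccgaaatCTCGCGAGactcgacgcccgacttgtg
Rpl15, chr14:18270967-18271106, minus strand: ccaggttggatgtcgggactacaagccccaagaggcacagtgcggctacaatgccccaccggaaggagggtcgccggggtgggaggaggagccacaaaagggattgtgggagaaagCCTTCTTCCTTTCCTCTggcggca
Rpl7a, chr2:26910687-26910826, plus strand: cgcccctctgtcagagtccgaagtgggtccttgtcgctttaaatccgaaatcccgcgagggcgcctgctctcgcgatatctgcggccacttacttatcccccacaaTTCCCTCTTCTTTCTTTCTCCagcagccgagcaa
Rpl39, chrX:37085203-37085342, minus strand: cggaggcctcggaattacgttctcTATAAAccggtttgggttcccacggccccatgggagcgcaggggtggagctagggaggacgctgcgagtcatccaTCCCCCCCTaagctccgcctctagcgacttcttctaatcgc
Rps4x, chrX:102189372-102189511, minus strand: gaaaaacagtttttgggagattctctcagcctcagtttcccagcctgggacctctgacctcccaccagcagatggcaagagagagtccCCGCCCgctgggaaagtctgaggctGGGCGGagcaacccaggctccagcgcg
Rpl10l, chr12:66284382-66284521, minus strand: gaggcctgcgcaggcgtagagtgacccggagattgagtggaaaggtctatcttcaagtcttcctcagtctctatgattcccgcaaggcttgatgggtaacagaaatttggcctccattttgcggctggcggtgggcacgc
Rpl39l, chr16:10170108-10170247, plus strand: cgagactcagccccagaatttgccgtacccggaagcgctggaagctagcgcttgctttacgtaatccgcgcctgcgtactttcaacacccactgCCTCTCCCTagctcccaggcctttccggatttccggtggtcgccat

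Rpl34, Rps13, Rps6 and Rpl15 are among the 5 tallest members. Rps19 is printed for its pair of CTCGCGAG matches and Rpl7a for the longest pyrimidine run among members, Rpl39 and Rps4x are low members on the X chromosome, and Rpl10l and Rpl39l are the members without a peak.

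The summits lay close to the start of transcription. A peak within 1000 bp of an annotated start was present in all 3 libraries at 59 of 62 ribosomal protein genes with an entry (95.2%), against 10978 of 17212 other genes (63.8%); over all genes with an entry the share was 63.9%. Leaving out the library labelled EV replicate 2 also gave 59. The 3 exceptions were Rpl10l, Rpl39l and Rpl3l. The highest summit of the start window stood at a median of -27, -36 and -34 bp from the nearest annotated start, upstream below 0, in replicates 1, 2 and 3 for ribosomal protein genes, against -28, -31 and -29 bp for the other genes. In all 3 libraries it was within 100 bp of a start at 41 of 59 ribosomal protein genes (69.5%), against 5808 of 10978 other genes (52.9%) and 53% of all genes. The middle 50% of genes ran from -71.5 to -3 bp in ribosomal protein genes and from -94 to 24 bp in the others.

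**Figure D2:**
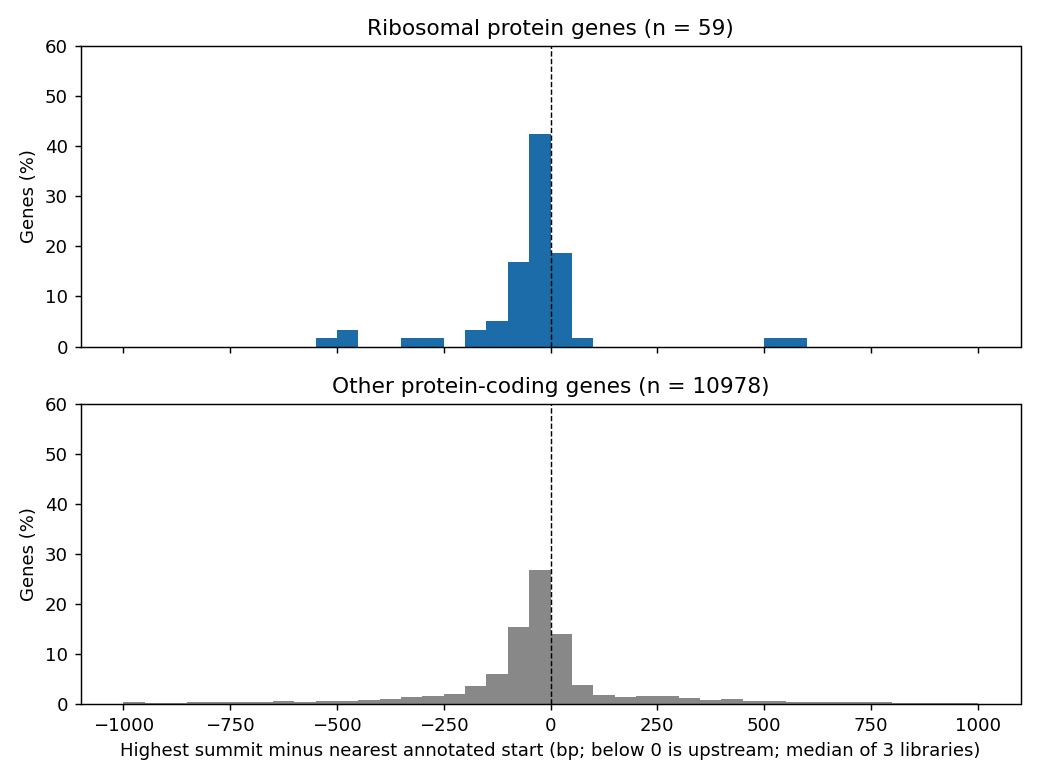
Distance of the highest summit to the nearest annotated start, in bp with upstream below 0, as the percent of ribosomal protein genes (upper panel) and of other protein-coding genes (lower panel) in bins of 50 bp, median of 3 libraries. Both distributions peak just upstream of the start. Below 0 lie 45 of 59 ribosomal protein genes and 7244 of 10978 other genes.

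Some members departed from that position. At Rps19, Rpl15 and Rpl7a the highest summit lay upstream of the printed bases. For Rpl7a this depends on the start used, at 26910807, which lies inside the gene. The gene itself begins at 26910685, close to the summits at 26910681, 26910668 and 26910680 in replicates 1, 2 and 3. At Rps19 the highest summit stood at -502, -516 and -509 bp from the nearest annotated start in replicates 1, 2 and 3. At Rpl10 it stood at -473, -479 and -469 bp, and at Rps26, a protein at the exit of the messenger RNA channel, at -329, -317 and -328 bp. At Rpl4 it stood at -486, -493 and -486 bp, and an end of Zwilch lies in the same window. In these 4 genes the position recurred in every library. At Rpl38 the tallest summit lay at 534 and 530 bp in replicates 1 and 2 and at -28 bp in replicate 3, so that the order of its summits differed between libraries. The tallest summit also changed place between libraries at Rps9, Rps23, Rps25 and Rpl39.

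The far end of the gene held a peak at fewer genes than the start. A peak within 1000 bp of it was found in every library at 18 of 62 ribosomal protein genes (29.0%), against 2956 of 17212 other genes (17.2%); the share over all genes was 17.2%. Ribosomal protein genes are often short, so the windows of both ends can hold the same peak. This was so in every library at Rps21, Rps27, Rps15, Rpl41, Rpl36al, Rps23 and Rpl32l. All of these are among the 18, and their far-end height equals their start height. The 18 is therefore not a count of separate far-end peaks. Where a far-end peak was present, its median height was 4.21 ppm in ribosomal protein genes, against 2.35 ppm in the others. How much of the difference comes from shared windows was not tested.

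Short motifs were counted in the promoter windows, which run from 250 bases before to 50 after the start, without a test. The ETS-family core CCGGAAGT occurred on either strand in 12 of 62 ribosomal protein windows (19.4%), against 5.29% of 17212 other windows. The palindrome CTCGCGAG occurred in 6 (9.68%), against 1.30% of the others. ATGGCGGC, the core bound by YY1, occurred in 4 (6.45%), against 3.23%, and the GC box GGGCGG in 36 (58.1%), against 46.9%. The TATA sequence TATAAA occurred in 7 (11.3%), against 13.4%. ATGGCGGC was found in Rpl28, Rpl34, Rps13 and Rps18, 3 of which are among the 5 tallest members. CCGGAAGT was found in Rpl11, Rpl19, Rpl26, Rpl31, Rpl35, Rpl37, Rpl41, Rps6, Rps18, Rps25, Rps27l and Rpsa. A match is a description of letters and not of binding.

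Pyrimidine runs at the start were also frequent. A run of 8 or more pyrimidines within 20 bases of the annotated start was present on the coding strand in 30 of 62 ribosomal protein windows (48.4%), against 20.2% of the others, with median longest runs of 7 and 5 bases. The longest was that of Rpl7a, 21 bases. Short pyrimidine strings, which can overlap each other and such runs, were searched on the coding strand within 20 bases on either side of the start. CTTTCC occurred in 10 ribosomal protein windows (16.1%), against 1.81% of the others. CTCTTT occurred in 8 (12.9%), against 1.25%, and the string CTTCC in 16 (25.8%), against 9.499%. The GC content of the windows was a median of 57% in ribosomal protein genes and 56.3% in the others, and the number of CG dinucleotides 21 and 13. Members with CCGGAAGT had a median end-peak height of 8.29 ppm (n = 12) and those without it 7.11 ppm (n = 47), with overlapping ranges. With and without each other motif, the medians were 7.70 and 6.72 for GGGCGG, 11.1 (n = 4) and 7.11 for ATGGCGGC, and 8.48 and 7.32 for CTCGCGAG. They were 8.03 and 7.20 for CTTTCC and 7.73 and 7.11 for CTTCC. The order was the opposite for TATAAA (5.73 and 7.63) and CTCTTT (7.27 and 7.32). A link between motif and height was not tested.

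Large-subunit and small-subunit genes had overlapping heights. The large subunit ran from 0.717 to 12.8 ppm (median 7.49 over 48 genes), and the small subunit from 3.65 to 11.1 (median 7.67 over 30 genes). The low end of the large subunit was set by Rpl32l (0.717) and Rpl19 (2.38, with 6.44 at its annotated start), and the next lowest gene was Rpl10 (3.66), close to Rps4x (3.65) in the small subunit. The medians by library were 7.24, 7.73 and 7.24 for the large subunit and 7.61, 7.69 and 8.20 for the small subunit. The difference of medians, -0.179 for large minus small, was smaller than its own SD between libraries of 0.502, and its sign turned without replicate 3 (0.0847).

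The tallest members were Rpl34, Rpl15, Rpl28, Rps13 and Rps6. Rpl34, a large-subunit protein (chromosome 3, 130726827 to 130730398), reached 13.2, 12.5 and 12.6 ppm in replicates 1, 2 and 3. Rpl15, a large-subunit protein (chromosome 14, 18267823 to 18270986), reached 11.4, 11.8 and 12.1, in a window that also holds an end of Nkiras1. Rpl28 reached 11.3, 10.9 and 11.2, and Rps13, a small-subunit protein, 11.04, 11.04 and 11.3. Rps6 (chromosome 4, 86854099 to 86857367), the small-subunit protein phosphorylated by S6 kinases downstream of mTOR, reached 10.98, 10.9 and 10.5. In all 3 libraries these 5 sites stood at percentile 99.6 or above of the peak list.

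The genes of the stalk, which recruits translation factors to the large subunit, were unequal in height. Rplp2 had 8.38, 8.02 and 7.99 ppm in replicates 1, 2 and 3, and Rplp1 had 8.005, 7.34 and 7.76. Rplp0, the anchor of the stalk and a common reference gene in expression assays, had 5.54, 7.70 and 5.21. Rplp0 was therefore lower than Rplp1 and Rplp2 in replicates 1 and 3, whereas in the library labelled EV replicate 2 it lay between them.

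Members with roles beyond the ribosome or in disease lay across the range. Rps19, the gene most often mutated in human Diamond-Blackfan anaemia, had 9.30, 10.3 and 10.3 ppm in replicates 1, 2 and 3. Rps14, the gene linked to the anaemia of the human 5q deletion, had 8.10, 8.76 and 8.20. Rpl11 had 7.37, 8.47 and 7.56 and Rpl5 had 5.18, 5.502 and 5.53; their proteins bind Mdm2 together and thereby stabilise p53 when ribosome assembly fails. Rpl5 was lower than Rpl11 in every library. Rpsa, also described as a laminin receptor, had 6.26, 6.62 and 6.09. At its annotated start Rpl13a, whose protein can leave the ribosome in the interferon response, had 8.89, 8.76 and 8.66. Rps27a, which is made fused to ubiquitin, had no matched promoter entry. Its end peak had 7.99, 8.06 and 8.46, and its windows also hold ends of Clhc1 and Mtif2.

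The 4 members on the X chromosome were low. Rps4x had 3.61, 3.62 and 3.73 ppm in replicates 1, 2 and 3, Rpl10, a protein added late to the large subunit, had 3.48, 4.21 and 3.29, Rpl39, a protein of the tunnel through which the new chain leaves, had 3.74, 3.93 and 4.20, and Rpl36a had 5.61, 5.45 and 5.36. Their median was 3.81, against 7.71 over the 74 autosomal members with a peak in all 3 libraries. Other genes showed the same order, with a median of 3.19 over 395 genes of the X chromosome, against 6.04 over 13452 autosomal genes. By fold enrichment, which is relative to the surroundings, the 4 members on the X chromosome had a median of 13.0, against 12.6 for the autosomal members. Copy number was not corrected for, and its part in the height was not tested.

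At some members a tall peak inside the gene was missed, wholly or in 1 library, by the gene-end windows. Rpl19, a low member by its end peaks (chromosome 11, 98022003 to 98030493), had end peaks of 2.27, 2.84 and 2.03 ppm, but the window around its annotated start, inside the gene, held peaks of 6.83, 6.19 and 6.29. Rps2 (chromosome 17, 24718121 to 24721927) had 8.36, 9.57 and 8.30 at its annotated start. Its peak in the library labelled EV replicate 2 ended 36 bp short of the gene-end window, whereas in replicates 1 and 3 it reached 61 and 52 bp into it. Rpl17 likewise had a peak inside the gene in every library, at 7.43, 8.20 and 7.71. Its end peak, at 4.63 and 5.15 ppm in replicates 1 and 3, is a separate flanking peak. Counting a peak anywhere in the gene or within 1000 bp of it, 80 of 82 members had one in all 3 libraries. The share of all genes under this wider rule was not computed, so this count stands without a comparison.

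Members that are copies of other members included those without any peak. Rpl10l (chromosome 12, 66283379 to 66284401) and Rpl39l (chromosome 16, 10170197 to 10174911), which are known for expression in testis, had no peak in the gene or within 1000 bp of it in any library. Such an absence says only that these regions did not reach the authors' calling threshold. Rpl3l (chromosome 17, 24727826 to 24736143), which replaces Rpl3 in striated muscle, had no peak at an annotated start in any library. The peak of 7.36, 8.89 and 7.94 ppm that gave it an end peak lies at its far end, in a window that also holds an end of Msrb1. Its counterpart Rpl3 had 7.55, 7.43 and 7.08 and Rpl10, the counterpart of Rpl10l, is described above. Rpl32l, a short gene inside Map7, had 0.739, 0.560 and 0.851, whereas Rpl32 had 5.69, 5.19 and 5.64. Rpl36al, a near copy of Rpl36a, had 7.92, 10.7 and 7.35, and its window also holds an end of Mgat2. Rps27l, a p53-responsive relative of Rps27, had 7.94, 9.14 and 8.59, against 9.63, 8.71 and 10.3 for Rps27. Reads from near-identical copies may be shared between loci, and how such reads were treated is not given in the sources used here.

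Ribosomal protein genes varied little between the libraries. Per gene, the ratio of the highest to the lowest library had a median of 1.11 and a maximum of 1.52 over the 78 genes. The median ratio was 1.17 over mitochondrial ribosomal protein genes, 1.16 over other genes of like height and 1.20 over all other genes. The members with the largest ratio were Rpl32l (1.52), Rplp0 (1.48), Rpl36al (1.45), Rpl19 (1.40) and Rpl7a (1.39), and in the last 4 of them the library labelled EV replicate 2 was the highest. For Rpl19 the end peak of replicate 1 lay at the other gene end from that of replicates 2 and 3, so its ratio compares different sites. At its annotated start Rpl19 had 6.83, 6.19 and 6.29 ppm in replicates 1, 2 and 3, lowest in the library labelled EV replicate 2. The median log2 ratio of that library to the mean of the other libraries was 0.03 over ribosomal protein genes, against 0.11 over the other genes. It was 0.5 or more in either direction at 2 of 78 ribosomal protein genes (2.56%), against 780 of 9520 other genes of like height (8.19%) and 2951 of 13847 other genes (21.3%). Mitochondrial ribosomal protein genes were near the cytosolic ones, with 3 of 78 (3.85%). Dividing pileups by the median of each peak list in place of its tags shifted the median log2 ratios to 0.37 and 0.45, so these counts hold for the scaling by tags, while the difference between the medians was -0.08 under both. Genes of like height were those with means from 3.91 to 10.9 ppm, the 5th to 95th percentiles of the members. The 78 members themselves were not limited to this range. Rpl32l, with a mean of 0.717 ppm and a log2 ratio of -0.507, is 1 of the 2 members counted above. Between replicates 1 and 3 the median absolute log2 difference was 0.08 in ribosomal protein genes and 0.07 in genes of like height. Between replicates 1 and 2 it was 0.11 and 0.17, and between replicates 2 and 3 it was 0.09 and 0.15.

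**Figure D3:**
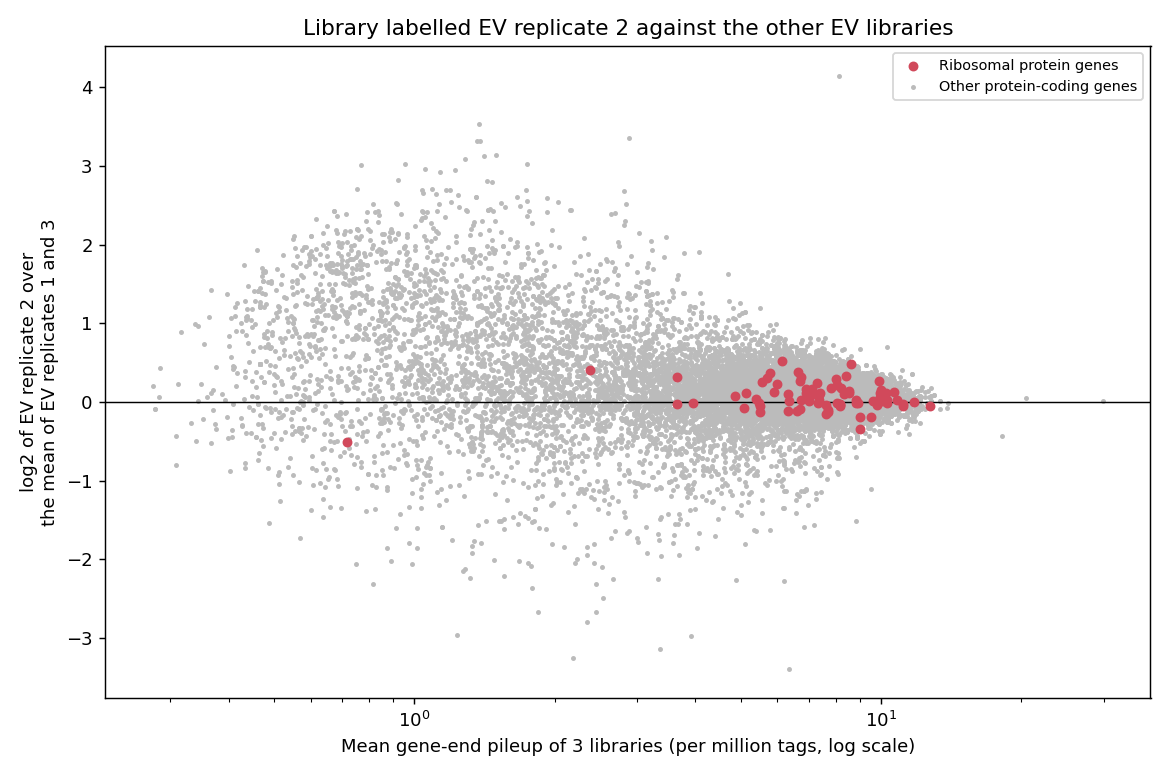
log2 ratio of the library labelled EV replicate 2 to the mean of replicates 1 and 3 against the mean end-peak height (ppm, log scale), 1 point per gene with an end peak in each library. Ribosomal protein genes (red) lie between -0.51 and 0.52, within the spread of the other genes (grey).

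Other lists related to the ribosome and translation were similarly accessible by the count and height of end peaks. Every library had an end peak at 78 of 78 mitochondrial ribosomal protein genes, 14 of 14 genes of translation factors and other proteins known for pyrimidine-tract messages, which include Npm1, Naca, Tpt1 and the RNA-binding protein gene Hnrnpa1, and 21 of 22 ribosome assembly genes, against 64.4% of all genes. The exception was Ubtf, a factor of ribosomal RNA transcription, listed with 0.552 ppm in replicate 1 and without an end peak in the others. Median heights were 7.62 over cytosolic ribosomal protein genes, 7.14 over mitochondrial ones, 7.54 over that list of 14 genes and 8.05 over assembly genes, against 5.96 over the other genes, so the cytosolic set was not the tallest of them. Of 7 matched genes that the symbol rule leaves out, 6 had an end peak in every library. Among them, Rps3a1 encodes a small-subunit protein and had 9.69, 9.14 and 10.4 ppm in replicates 1, 2 and 3. Fau, which encodes a ribosomal protein fused to a ubiquitin-like protein, had 5.39, 6.06 and 5.30 ppm. Rack1, a scaffold protein of the small subunit, had 7.36, 7.15 and 7.07 ppm. The paralogue genes Rpl22l1 and Rpl7l1 averaged 10.6 and 6.58 ppm, whereas Rps27rt lacked an end peak in every library.

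**Figure D4:**
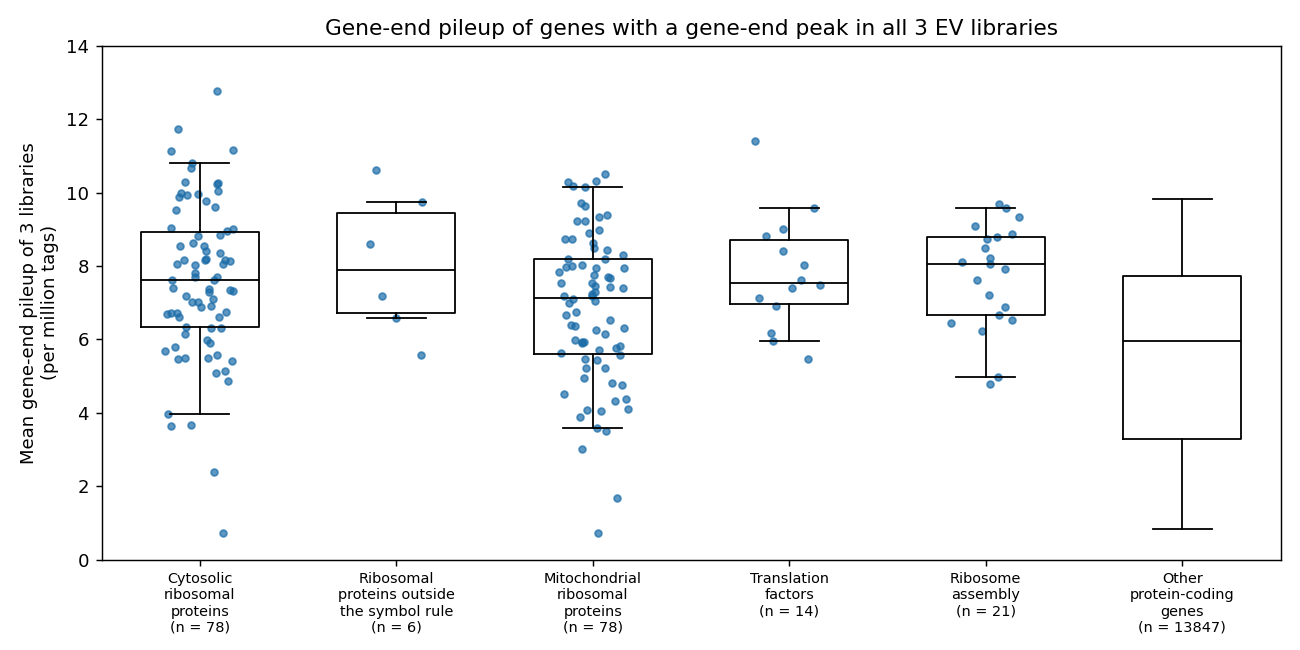
Mean end-peak height over 3 libraries (ppm) for genes with an end peak in each, by gene list, with the other protein-coding genes at the right; the list headed translation factors also holds Npm1, Naca, Tpt1 and Hnrnpa1. Boxes span the middle 50% with the median, whiskers the 5th to 95th percentiles, and points are genes; all 5 lists have medians above the 5.96 of the other genes.

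Around the genes, the number of accessible regions was close to that of other genes. Regions with a peak in all 3 libraries, outside every gene-end window and within 50 kb of the gene, numbered a median of 6 at ribosomal protein genes (range 0 to 14), against 5 at the other genes (range 0 to 72). At least 1 was present at 81 of 82 ribosomal protein genes, against 85.4% of all genes. Among other genes with the same number of coding genes nearby, the median was 5. Of the members, 39 lay above their matched median, 31 below it and 12 at it. The span counted includes the gene itself and so grows with gene length, for which the genes were not matched. The members with the most were Rpl32l (14), which lies inside the longer gene Map7, and Rpl9 and Rpl17 (13 each). Rpl10l was the member with 0. Rps6, Rplp0 and Rplp2 had 11 each, Rps14 and Rpl5 10, and Rpl10 1.

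Members often host snoRNA genes. A snoRNA gene lay inside 29 of 82 ribosomal protein genes, against 1.72% of all genes, and these hosts carried 58 of the 1340 snoRNA genes counted. Rpl4 held 5, and Rpl7a and Rpl13a were among those with 4. Hosts had a median height of 7.35 (n = 27) and members without a snoRNA 7.80 (n = 51). Among other genes the order was the opposite, with 6.82 for hosts (n = 261) and 5.94 for the rest (n = 13586). An end of another protein-coding gene lay in the window of 30 of 82 ribosomal protein genes, against 25.1% of all genes. Members with such a neighbour had a median height of 7.37 (n = 29) and those without it 7.63 (n = 49), whereas among other genes the medians were 6.68 and 5.39. In such windows the gene to which a peak belongs was not tested.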

How the data were processed

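ATAC-seq peak lists of 3 libraries labelled EV were used; replicate 2 has a tall signal inside Sox4 that goes against that label, and was kept in the group its label gives. Per the submitters' processing notes, Bowtie2, Picard, deepTools and MACS2 were used with build mm10; alignment and duplicate settings are not given in the sources used here. Per the file headers, MACS 2.2.7.1 called peaks on each library without a control, shifting ends by 100 bp and extending them to 200 bp, keeping all duplicates, at a q-value cutoff of 0.05. The deposited signal column is the pileup at each summit, unscaled. The deposited fold enrichment is a ratio to the background, taken over 10000 bp where that is higher, and the −log10 p and −log10 q columns, also deposited, use the same background. Depth was 96066404 to 117450440 tags. Peak lists carry no counts outside peaks, so no interval or floor is given.

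Pileups were divided by the header's tags and scaled to 1000000 (ppm). An end peak overlaps, by 1 bp or more, the span from 1000 bp before to 1000 bp after a gene end. Shared regions merge peaks that overlap by 1 bp or more and hold a peak of every library. Genes and promoter sequences came from RefSeq tables of GRCm38.p6; starts were taken from the promoter entries, and motifs were searched in the entry at the outermost start. Window searches were tested on simulated data. No test was run, because there is 1 group. Members, lists, motifs and the naming rule were chosen with earlier results of these data known. The naming rule took the 5 highest, the 5 lowest and the 5 most variable members, members without a peak in all 3 libraries, the 3 with most shared regions, and members of known role or duplication. Members named for a distant summit, a motif or a snoRNA were chosen after their values were seen. Some members enter the counts and medians but are not reported here by name. Alternatives were the window widths, thresholds, scaling, overlap and leaving out each library. Python 3.11.15, numpy 2.4.6 and pandas 2.3.3 were used.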

Additional observations from a re-analysis of the deposited data

How the results depend on the processing

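The count of ribosomal protein genes with an end peak in every library was 75 to 80 under every alternative run, and 78 to 80 when each library was left out. With 50000 peaks per library it was 76, against 54.4% of all genes, with Rpl19 and Rpl32l lost. The count with a peak at an annotated start was 59 under every alternative run. The median end-peak height of 7.62 was 7.46 to 7.63 when each library was left out, 7.98 with windows of 2500 bp, 7.37 with the summit itself in the window, and 7.37 at annotated starts, an alternative added after seeing the data. The value at annotated starts covers only genes with a promoter entry, and over the other genes it was 6.13. With the summit in the window Rpl22 had 1.40 in place of 9.78. The median fold enrichment of 12.6 was 12.4 to 12.8 when each library was left out. The median number of shared regions was 6 without any 1 library, 2 within 20 kb, 12 within 100 kb, and 5 with peaks of −log10 q of 10 or more. The difference of large minus small subunit was -0.577 to 0.0847 when each library was left out, turning sign without replicate 3; the cause was not tested. Dividing pileups by the median of each list shifted the median log2 ratio of replicate 2 by over 0.3, to 0.37 over ribosomal protein genes and 0.45 over the other genes. Relative to the other genes it stayed at -0.08 under both scalings. No paired analysis was possible because there is 1 group. Peak calling limits the low end: regions under the authors' threshold have no value.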
